A study of Mus musculus with 18 samples.

Results

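The collagen genes on the array numbered 41, of the 19057 genes that the platform annotation gives under 1 symbol each. A gene belonged to the set if its symbol was Col, a number, the letter a and a number. Each gene was represented by 1 probe, the one of its probes with the highest mean over the 18 arrays, out of 91 collagen probes in all. The study fed cannabis extract to young mice and measured hippocampal RNA on Illumina bead arrays when dosing ended and again in adulthood, to follow what heavy early exposure leaves behind. All mice were C57BL/6J, and all were fed by hand each day for 14 days, from postnatal day 14 to postnatal day 28 (P28). The adult cannabis group (n = 5) received the extract at 20 mg/kg in an emulsion of sweetened condensed milk and olive oil, and is labelled as P56. The adult vehicle group (n = 5) had the same emulsion without extract and the same age label. Both adult groups also went through behavioural tests and a challenge with phencyclidine (PCP), followed by a washout before tissue was taken, so age and these procedures cannot be told apart. The P28 cannabis group (n = 4) received the same dose of extract and the P28 vehicle group (n = 4) the emulsion alone, and both were killed 70 to 80 minutes after the start of a feeding. The sources used here do not say that each array is a separate mouse, so each p-value is set against a spread that may be technical only.

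Collagens are secreted proteins whose alpha chains wind around each other into a stiff helix. Fibrillar collagens bundle into the fibres of connective tissue, which in the brain lies mostly in the meninges, the stroma of the choroid plexus and the walls of larger vessels. Basement membrane collagens, above all collagen IV, form the sheet that surrounds every brain capillary and the surface of the brain, and endothelial cells and pericytes are known to make it. The other types include network formers, linkers that decorate fibres, microfibril formers and transmembrane collagens, some of which neurons make.

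Promoter sequences are printed for the collagen VIII chains Col8a1 and Col8a2, which had the largest P28 differences by treatment among the collagens, and for the start region shared by the collagen IV chains Col4a1 and Col4a2, which lie head to head. They were taken from RefSeq on GRCm38.p6, in which 33 of the 41 collagen genes had at least 1 promoter window, 36 windows in all. Capitals mark GGGCGG on either strand (CCGCCC on the strand printed), the core of a GC box. The first window holds the 250 bases before the start of Col8a1 on the minus strand, chr16:57754738-57754987. The second holds the 250 bases before the start of Col8a2 on the plus strand, chr4:126286544-126286793. The last line holds the 22 bases from the start of Col4a2 to the start of Col4a1, read on the plus strand, chr8:11312805-11312826.
Col8a1: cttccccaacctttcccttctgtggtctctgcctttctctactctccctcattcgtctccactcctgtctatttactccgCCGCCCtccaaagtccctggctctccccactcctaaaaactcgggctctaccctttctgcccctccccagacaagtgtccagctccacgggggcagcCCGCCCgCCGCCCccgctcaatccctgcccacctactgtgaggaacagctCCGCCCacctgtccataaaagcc
Col8a2: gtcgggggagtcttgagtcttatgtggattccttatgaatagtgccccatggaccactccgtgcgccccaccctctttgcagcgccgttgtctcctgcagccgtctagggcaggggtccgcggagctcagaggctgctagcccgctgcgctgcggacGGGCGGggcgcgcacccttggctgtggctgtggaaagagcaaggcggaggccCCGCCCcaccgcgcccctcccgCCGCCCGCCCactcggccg
Col4a1 and Col4a2 start region: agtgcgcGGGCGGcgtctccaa

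Each printed collagen VIII stretch of 250 bases held 4 copies of GGGCGG, of which the last 2 of Col8a2 overlap. Neither stretch held TATAAA or CCAAT on either strand. The shares that follow were counted over whole promoter windows, which run past the start and are longer than the stretches printed. GGGCGG was present in 23 of the 36 collagen windows (63.9%) and in 35.7% of all 32851 promoter windows. CCAAT was in 13 of the 36 (36.1%) and in 37.4% of all windows, and TATAAA in 5 of the 36 (13.9%) and in 13.6% of all. TGACTCA was in 1 of the 36 (2.78%), the window of Col6a1, and in 5.2% of all windows. A match is a description of these letters and says nothing of binding.

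Values are log2 probe intensities as the authors deposited them, normalized between arrays and with no background removed. Unexpressed probes formed a peak at 6.77, and a probe was taken as above background if it exceeded 6.98 on at least 4 arrays. That left 18249 of 45281 probes and 10438 genes. Since a dim probe sits on this background, a difference between groups understates the change in RNA. Hippocampal neuron markers were above background for 8 of 10 genes and astrocyte markers for 8 of 8. Within groups, arrays correlated at 0.981 to 0.995, and replicates 4 and 5 stood apart from replicates 1 to 3, with 23.6% of probes differing at an adjusted p below 0.05. The sources used here do not say what these replicate sets are.

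Of the 41 collagens, 19 (46.3%) were above background, against 54.8% of all genes with a symbol. Of these 19, 7 exceeded the background level on all 18 arrays. Among the 22 below, 13 exceeded it on none and 9 on 1 to 3 arrays, and the highest single value of any of the 22 was 7.10. In whole tissue, fewer cells of a type and less RNA per cell cannot be told apart.

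Fibrillar collagens were mostly at background, with 3 of 11 kept. Col5a1, a chain of collagen V, which helps collagen I fibrils to start, was the 1 fibrillar gene above background on all 18 arrays, with a mean of 7.50. It read 7.66, 7.72, 7.34, 7.27 and 7.03 in adult cannabis mice, 7.52, 7.30, 7.42, 7.59 and 7.47 in adult vehicle mice, 7.66, 7.50, 7.60 and 7.53 in P28 cannabis mice and 7.82, 7.58, 7.65 and 7.27 in P28 vehicle mice. The 4 groups overlapped. Col1a1 and Col1a2, the chains of collagen I, each exceeded the level on 5 arrays, with highest values of 7.08 and 7.07. Col3a1, the chain of collagen III, exceeded it on 1 array, a P28 vehicle array at 7.02, and averaged 6.78 ± 0.04 in adult cannabis, 6.75 ± 0.04 in adult vehicle, 6.80 ± 0.02 in P28 cannabis and 6.92 ± 0.09 in P28 vehicle mice (SD, n = 5, 5, 4 and 4). The rest were Col2a1, Col5a3, Col24a1 and Col27a1, above on no array, and Col5a2, Col11a1 and Col11a2, above on 1 or 2. Collagens I and III are the main collagens of the meninges, and their 3 genes lay near or below background, so a description of this gene set as collagens of the meninges was not borne out by those levels. Other markers of meningeal fibroblasts were above background for 10 of 17 genes, among them Mgp at 7.96 to 9.81 and Igf2 at 9.01 to 11.07. Slc22a6, Slc47a1 and Foxc1 were kept too but lay close to the background level, with means of 7.03, 7.07 and 7.11. Aldh1a2, Crabp2, Foxc2, Foxd1, Islr, Slc22a2 and Tbx18 were not above background.

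**Figure D1:**
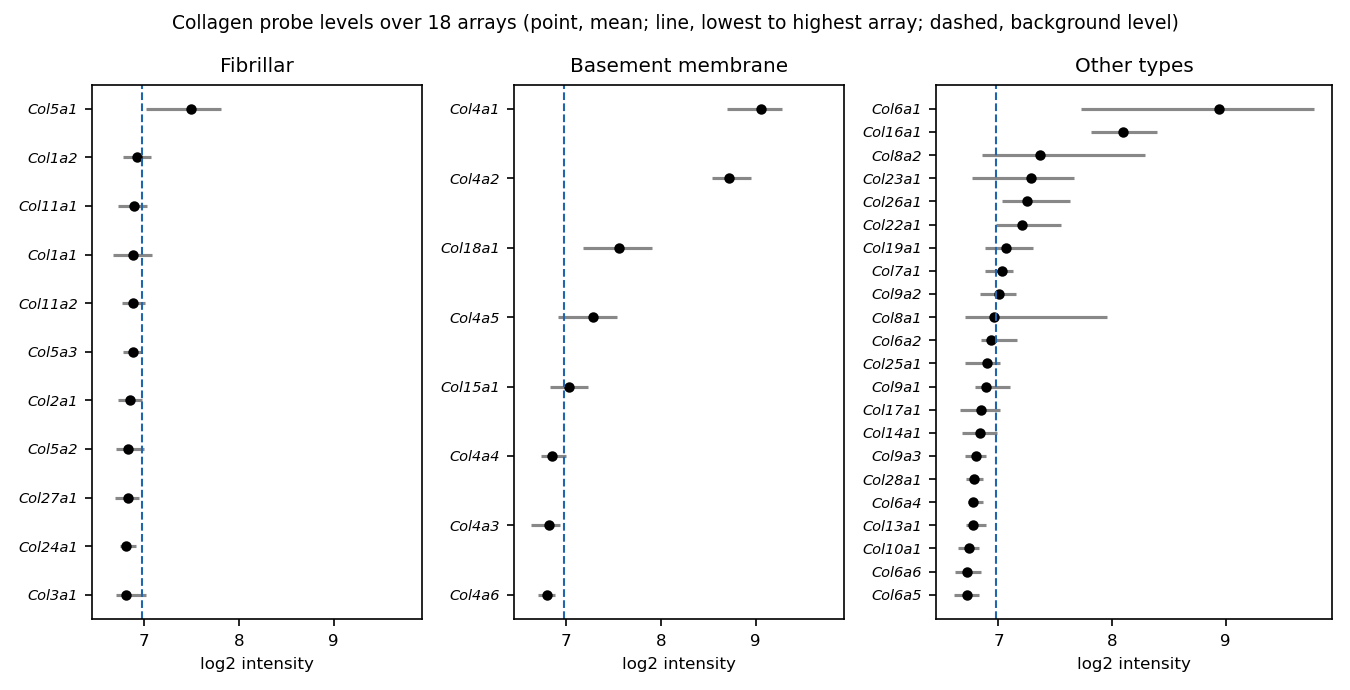
Level of each of the 41 collagen genes (log2 intensity, x axis) in 3 panels for fibrillar, basement membrane and other types. A point is the mean of 18 arrays, the line runs from the lowest to the highest array, and the dashed line is the background level of 6.98. Col4a1, Col4a2, Col6a1 and Col16a1 stand clear of it on every array, and most fibrillar genes straddle it or lie below.

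Basement membrane collagens were kept for 5 of 8 genes. Col4a1 and Col4a2, which together form the collagen IV of nearly all vessels, were above background on 18 arrays, with means of 9.06 and 8.72. Col4a1 read 8.86, 9.07, 9.04, 9.03 and 8.72 in adult cannabis mice, 9.01, 9.25, 9.11, 8.93 and 8.70 in adult vehicle mice, 9.19, 9.02, 9.23 and 9.21 in P28 cannabis mice and 9.21, 9.28, 9.11 and 9.07 in P28 vehicle mice. Col4a2 read 8.71, 8.80, 8.75, 8.63 and 8.68 in adult cannabis mice, 8.82, 8.76, 8.54, 8.75 and 8.74 in adult vehicle mice, 8.59, 8.57, 8.93 and 8.70 in P28 cannabis mice and 8.65, 8.61, 8.81 and 8.95 in P28 vehicle mice. Both genes spanned a narrow range, 8.70 to 9.28 for Col4a1 and 8.54 to 8.95 for Col4a2, with the groups overlapping. Col18a1, a vessel basement membrane collagen whose end fragment is endostatin, was also above on 18 arrays, with a mean of 7.56. Col4a5, a chain mutated in the kidney disease Alport syndrome, was above on 17 arrays with a mean of 7.28, and Col15a1, a relative of Col18a1, on 11 with a mean of 7.03. The remaining collagen IV chains Col4a3, Col4a4 and Col4a6 were at background, with Col4a4 reaching 6.996 on 1 array. Collagen IV genes lie in head-to-head pairs, so of the pair Col4a3 and Col4a4 on chromosome 1 neither chain was above background, and of the pair Col4a5 and Col4a6 on the X chromosome 1 chain was. Vessel cells were detected by their markers: 14 of 16 endothelial, 6 of 9 pericyte and 6 of 8 smooth muscle genes were above background. Abcb1a, Tie1, Anpep, Atp13a5, Kcnj8, Cnn1 and Tagln were below. Among those kept, endothelial Eng, pericyte Pdgfrb, Higd1b and Abcc9, and smooth muscle Myh11, Des and Tpm2 lay close to the background level. Their means were 6.99 to 7.08.

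Other collagen types were kept for 11 of 22 genes. Col6a1, a chain of the collagen VI microfibrils, Col16a1, a fibre-associated linker, and Col26a1 were above background on 18 arrays, with means of 8.94, 8.10 and 7.25. Col6a2, the usual partner of Col6a1, exceeded the level on 5 arrays and reached at most 7.16. The network collagens Col8a2 and Col8a1, known from Descemet's membrane of the cornea and from vessel walls, were above on 17 and 5 arrays. The linker Col22a1, known from muscle-tendon junctions, was above on 17, and the transmembrane collagen Col23a1 on 16. Col19a1, which hippocampal interneurons are known to make, was above on 15, the anchoring fibril collagen Col7a1 on 13 and the cartilage chain Col9a2 on 12. Those at background were Col6a4, Col6a5, Col6a6, Col9a1, Col9a3, Col10a1, Col13a1, Col14a1, Col17a1, Col25a1 and Col28a1, of which Col9a1 held the highest single value, 7.10.

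The effect of the extract at the end of dosing was read from P28 cannabis against P28 vehicle mice. None of the 19 collagens passed the test, in a comparison in which limma called 0.0% of 18249 probes and 327 probes had an unadjusted p below 0.05. The differences were higher in cannabis mice for 6 genes and lower for 13, with a median of -0.02 on the log2 scale against -0.00055 over all probes. Both collagen VIII chains were at the top. Col8a1 read 6.83, 7.61, 7.18 and 7.96 in P28 cannabis mice, against 7.02, 6.85, 7.17 and 6.80 in P28 vehicle mice. Cannabis replicates 2, 3 and 4 exceeded every vehicle array, and replicate 1 was among the lowest. The difference was 0.43 ± 0.16 (moderated SE, unadjusted p = 0.0129, limma adjusted p = 1, 95% interval 0.10 to 0.76). Col8a2 read 7.23, 8.29, 7.91 and 8.22 in P28 cannabis mice, against 7.10, 7.49, 7.76 and 7.03 in P28 vehicle mice. Again replicates 2, 3 and 4 of the cannabis group lay above all vehicle arrays. Its difference was 0.57 ± 0.19 (unadjusted p = 0.00871, limma adjusted p = 1). A second Col8a2 probe gave -0.00, with an SE of 0.05. It was kept but lay close to the background level, at 6.85 to 7.13 and above it on 6 arrays. A difference could thus hardly show there.

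**Figure D2:**
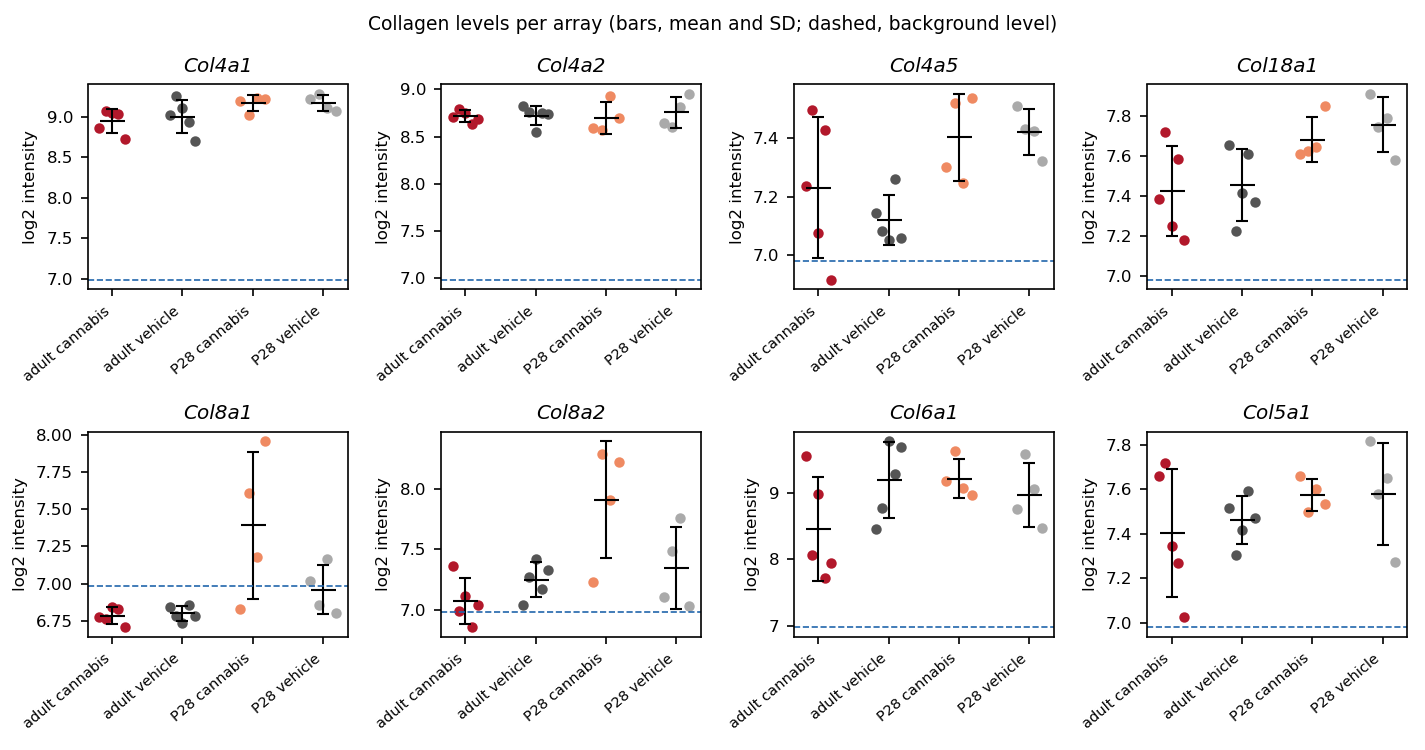
Log2 intensity (y axis) of 8 collagen genes, a point per array, with the mean and SD of each group and the background level dashed. Groups are adult cannabis (n = 5), adult vehicle (n = 5), P28 cannabis (n = 4) and P28 vehicle (n = 4). Col8a1 and Col8a2 spread widely in P28 cannabis mice, the adult Col8a1 arrays all lie under the background level, and the y axes differ between panels.

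The collagen VIII values moved with markers of choroid plexus epithelium, the secretory tissue beside the hippocampus. Of 12 such markers, 11 were above background and Tmem72 was not. Their mean level was 7.43, 7.33, 7.24, 7.25 and 7.31 in adult cannabis mice, 7.10, 7.50, 7.37, 7.54 and 7.43 in adult vehicle mice, 7.52, 8.91, 8.41 and 9.12 in P28 cannabis mice and 7.40, 7.35, 8.32 and 7.13 in P28 vehicle mice. Only 4 arrays exceeded 8, P28 cannabis replicates 2, 3 and 4 and P28 vehicle replicate 3, and on those Col8a1 and Col8a2 had their 4 highest values. At P28 all 11 markers were higher in the cannabis group, with a median difference of 0.67, and none passed the test. Cldn2 was above background on 4 arrays and Aqp1, Kcne2 and Otx2 on 5 each, among them P28 cannabis replicates 2, 3 and 4. Those genes entered the test largely through that group, so the filter favoured their direction. Ttr, the transthyretin of the choroid plexus, differed by 2.74 ± 0.84, Aqp1, a water channel, by 0.85 ± 0.22 and Ecrg4, a secreted peptide precursor, by 1.39 ± 0.41 (limma adjusted p = 1 each).

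Within groups, 2 of the 19 collagens followed the choroid plexus level, Col8a1 and Col8a2, in a fit in which limma called 0.208% of probes. The slopes were 0.50 ± 0.08 per unit of marker level for Col8a1 (limma adjusted p = 0.00809) and 0.63 ± 0.09 for Col8a2 (limma adjusted p = 0.00205). Col8a1 was above background on 5 arrays, among them every array with a marker level above 8, so the filter favoured its positive slope. Cldn2, Aqp1, Kcne2 and Otx2, which are part of the level, were kept largely through the same arrays. Over the 14 arrays with a marker level below 8, which span 0.437, the slopes were 0.07 ± 0.20 and 0.70 ± 0.36 (limma adjusted p = 1 for both). Of these arrays, only P28 vehicle replicate 1 exceeded the background level for Col8a1, at 7.02. A slope of that gene could thus hardly show there. The Col8a2 slope was as large as over all arrays and had a wider error. Without P28 cannabis replicate 1 the slopes of Col8a1 and Col8a2 were 0.41 and 0.56, with adjusted p-values of 1 and 0.514. The second Col8a2 probe, which lay close to the background level, had a slope of 0.06 ± 0.05 (limma adjusted p = 1). With the marker level as a covariate, the P28 differences were -0.03 for Col8a1 and -0.02 for Col8a2. The level itself averaged 8.49 in P28 cannabis and 7.55 in P28 vehicle mice, so this fit cannot fully tell it and treatment apart.

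**Figure D3:**
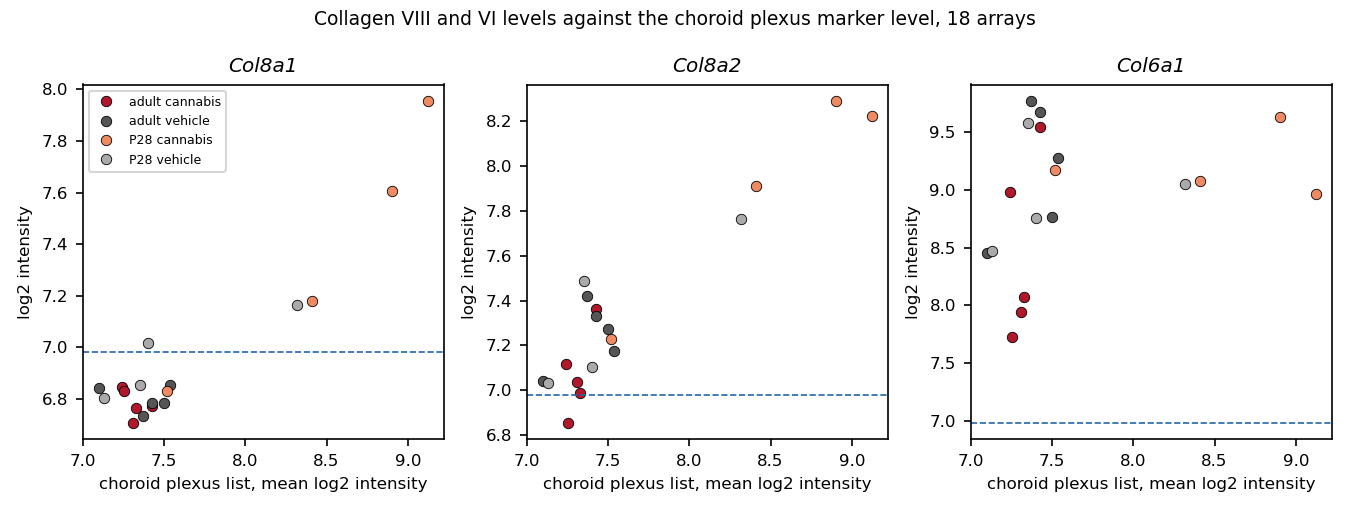
Log2 intensity of Col8a1, Col8a2 and Col6a1 (y axes) against the mean log2 intensity of 11 choroid plexus markers (x axis) on 18 arrays, coloured by group, with the background level dashed. The 4 arrays with a marker level above 8 hold the 4 highest values of both collagen VIII genes. They do not hold those of Col6a1, whose slope within groups was 0.23 ± 0.33 and did not pass.

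None of the remaining P28 differences passed the test. Col6a1 read 9.17, 9.63, 9.07 and 8.97 in P28 cannabis mice, against 8.76, 9.58, 9.05 and 8.47 in P28 vehicle mice, a difference of 0.25 ± 0.36. Col22a1 read 7.12, 7.06, 7.16 and 7.18 in P28 cannabis mice, against 7.39, 7.20, 7.27 and 7.33 in P28 vehicle mice. It was the 1 collagen whose cannabis arrays all lay below its vehicle arrays, as did 0.745% of probes, and the difference was -0.17 ± 0.10. Col26a1 read 7.23, 7.32, 7.25 and 7.23 in P28 cannabis mice, against 7.63, 7.37, 7.42 and 7.26 in P28 vehicle mice, a difference of -0.16 ± 0.08. Col16a1 read 8.06, 8.04, 7.97 and 8.07 in P28 cannabis mice, against 8.40, 8.11, 8.06 and 8.09 in P28 vehicle mice, a difference of -0.13 ± 0.10. The limma adjusted p was 1 for each of these 4 genes. In same-numbered pairs of P28 arrays, 2 collagens, Col6a1 and Col8a2, were higher in cannabis mice in 4 of 4 pairs, as were 6.39% of probes. Another 3, Col16a1, Col22a1 and Col26a1, were lower in 4 of 4 pairs, as were 5.84% of probes, and with replicate number as a block none of the 19 passed. For the vessel chains the 95% intervals were -0.22 to 0.21 for Col4a1 and -0.24 to 0.12 for Col4a2. All 5 basement membrane genes had differences between -0.07 and -0.00, and the 3 fibrillar genes between -0.07 and 0.02.

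What remained of an effect in adulthood was read from adult cannabis against adult vehicle mice. None of the 19 collagens passed, with limma calling 0.0% of probes and 647 at an unadjusted p below 0.05. The differences were negative for 14 genes and positive for 5, with a median of -0.02 against 0.00148 over all probes. Col6a1 had the largest. It read 9.54, 8.07, 8.98, 7.73 and 7.94 in adult cannabis mice, against 8.45, 8.76, 9.78, 9.28 and 9.68 in adult vehicle mice. Cannabis replicates 2, 4 and 5 lay below every vehicle array, and the other two lay within the vehicle range. The difference was -0.74 ± 0.32, an intensity ratio of 0.60 (unadjusted p = 0.0354, limma adjusted p = 1). A second Col6a1 probe above background gave -0.72 ± 0.29 (limma adjusted p = 1).

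Other adult differences by treatment were at most 0.18 in size. Col15a1 read 6.96, 7.23, 7.01, 7.14 and 6.90 in adult cannabis mice, against 6.94, 7.02, 6.83, 6.95 and 6.86 in adult vehicle mice, a difference of 0.13 ± 0.07. Col4a5 read 7.24, 7.50, 7.08, 7.43 and 6.92 in adult cannabis mice, against 7.15, 7.08, 7.05, 7.26 and 7.06 in adult vehicle mice, a difference of 0.11 ± 0.09. These were basement membrane genes with overlapping groups. Col7a1 read 7.02, 7.05, 7.01, 7.02 and 7.12 in adult cannabis mice, against 6.97, 7.07, 6.88, 7.06 and 6.98 in adult vehicle mice, a difference of 0.05 ± 0.05. Col23a1 read 7.34, 7.28, 7.34, 6.87 and 6.77 in adult cannabis mice, against 7.39, 7.28, 7.29, 7.20 and 7.21 in adult vehicle mice, a difference of -0.16 ± 0.12. Its 2 lowest values were cannabis replicates 4 and 5. Col16a1 read 8.34, 8.09, 7.82, 8.11 and 7.86 in adult cannabis mice, against 8.21, 8.15, 8.15, 8.24 and 8.02 in adult vehicle mice, a difference of -0.11 ± 0.09. The limma adjusted p was 1 for all of them. Col8a1 was below the background level on all 10 adult arrays, so no fold is given for it here. The 95% intervals for the vessel chains were -0.25 to 0.13 for Col4a1 and -0.17 to 0.15 for Col4a2.

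Whether the treatment difference itself changed with age was tested as an interaction, the adult difference minus the P28 difference. None of the 19 collagens passed and limma called 0.0% of probes, with 531 at an unadjusted p below 0.05. The 3 with the smallest p below 0 were Col8a2 at -0.75 ± 0.26, Col8a1 at -0.45 ± 0.21 and Col6a1 at -0.98 ± 0.49, and the 3 above 0 were Col22a1 at 0.24 ± 0.13, Col26a1 at 0.17 ± 0.10 and Col15a1 at 0.14 ± 0.10.

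**Figure D4:**
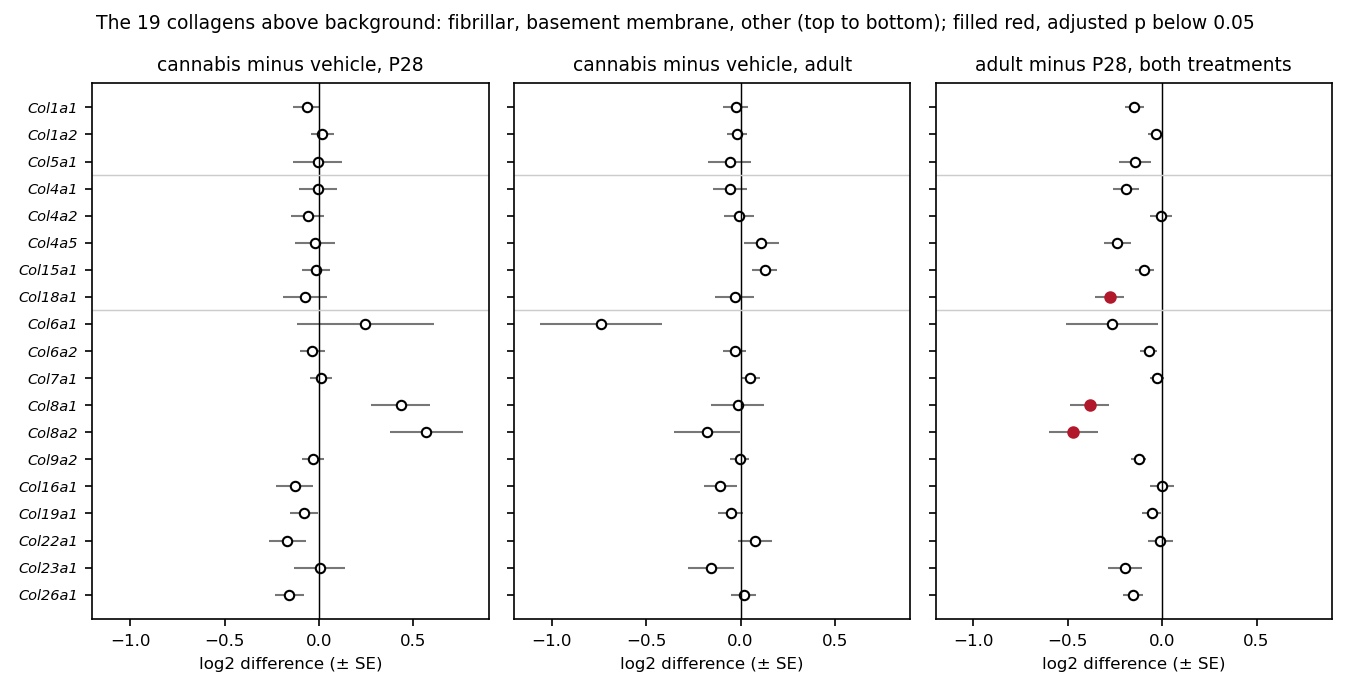
Log2 difference with its SE (x axis) for each of the 19 collagens above background, in 3 panels: cannabis minus vehicle at P28, cannabis minus vehicle in adults, and adult minus P28 averaged over both treatments. Filled red points passed an adjusted p of 0.05, which only Col8a1, Col8a2 and Col18a1 did, in the age panel, where all 19 points lie at or below 0.

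Age was first compared within each treatment. In vehicle mice, adults against P28, none of the 19 collagens passed, where limma called 1.07% of probes, and 18 of 19 differences were negative with a median of -0.12, against 0.0057 over all probes. Col26a1 read 7.24, 7.09, 7.19, 7.28 and 7.08 in adult vehicle mice, against 7.63, 7.37, 7.42 and 7.26 in P28 vehicle mice, and differed by -0.24 ± 0.07 (limma adjusted p = 0.119). Col4a5 read 7.15, 7.08, 7.05, 7.26 and 7.06 in adult vehicle mice, against 7.51, 7.43, 7.42 and 7.32 in P28 vehicle mice, and differed by -0.30 ± 0.10 (limma adjusted p = 0.16). Every adult vehicle array was below every P28 vehicle array for Col4a5 and for the cartilage chain Col9a2, an order found for 3.53% of probes. Col18a1 read 7.66, 7.23, 7.41, 7.61 and 7.37 in adult vehicle mice, against 7.91, 7.74, 7.79 and 7.58 in P28 vehicle mice, and differed by -0.30 ± 0.11 (limma adjusted p = 0.202). Col6a1 alone was higher in adult vehicle mice, by 0.22 ± 0.34 (limma adjusted p = 0.854), and it was lower, by -0.13, in replicates 1 to 3 taken alone.

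In cannabis mice, adults against P28, again none of the 19 passed, where limma called 0.0274% of probes. Differences were negative for 16 genes, with a median of -0.11 against 0.00427 over all probes. Col8a2 read 7.36, 6.99, 7.12, 6.85 and 7.04 in adult cannabis mice, against 7.23, 8.29, 7.91 and 8.22 in P28 cannabis mice, and differed by -0.84 ± 0.18 (limma adjusted p = 0.0797). Adult replicate 1 was the 1 adult cannabis array inside the P28 range. Col8a1 read 6.77, 6.76, 6.84, 6.83 and 6.71 in adult cannabis mice, against 6.83, 7.61, 7.18 and 7.96 in P28 cannabis mice, and differed by -0.61 ± 0.15 (limma adjusted p = 0.111). All 5 adult values were below the background level, so the fold is a bound, at least 1.33-fold lower in adults. Col18a1 differed by -0.26 ± 0.11 (limma adjusted p = 0.411). The 3 positive differences, Col22a1 at 0.11 ± 0.09, Col4a2 at 0.02 ± 0.08 and Col16a1 at 0.01 ± 0.09, were within their error.

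Averaged over both treatments, 3 of the 19 collagens passed, Col8a1, Col8a2 and Col18a1, and all 3 fell with age. With replicate number as a block only Col8a2 passed. Leaving out each of the 18 arrays in turn, no collagen passed in 8 cases, and Col18a1 passed in 5, Col8a1 in 5 and Col8a2 in 3. Limma called 3.1% of probes as lower in adults and 4.96% in either direction. All 19 differences were negative, with a median of -0.14, where the median over all probes was 0.00552 and 47.2% were negative. Col8a1 exceeded the background level only on P28 arrays, and Col1a1 and Col6a2 mainly on them, so the filter favoured a negative age difference for these genes. The P28 and adult arrays overlapped for every collagen. By type, 0 of 3 fibrillar, 1 of 5 basement membrane and 2 of 11 other genes passed, and none rose.

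Col18a1 read 7.38, 7.72, 7.25, 7.58 and 7.18 in adult cannabis mice, 7.66, 7.23, 7.41, 7.61 and 7.37 in adult vehicle mice, 7.61, 7.62, 7.64 and 7.85 in P28 cannabis mice and 7.91, 7.74, 7.79 and 7.58 in P28 vehicle mice. Adult cannabis mice averaged 7.42 ± 0.23, adult vehicle mice 7.45 ± 0.18, P28 cannabis mice 7.68 ± 0.11 and P28 vehicle mice 7.75 ± 0.14 (SD). It fell by 0.28 ± 0.08 on the log2 scale, an intensity ratio of 0.82 (limma adjusted p = 0.0444). The difference was -0.28 in replicates 1 to 3 alone (limma adjusted p = 0.159). It was -0.28 in replicates 4 and 5 alone, which hold 1 P28 array of each treatment, and -0.24 over the 14 low choroid plexus arrays, which hold 1 P28 cannabis array.

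Col8a1 averaged 6.78 ± 0.06 in adult cannabis mice, 6.80 ± 0.05 in adult vehicle mice, 7.39 ± 0.49 in P28 cannabis mice and 6.96 ± 0.16 in P28 vehicle mice (SD). It fell by 0.38 ± 0.11 (limma adjusted p = 0.0433), and as all 10 adult arrays were below the background level the bound is at least 1.14-fold lower in adults. It entered the test through 3 P28 cannabis and 2 P28 vehicle arrays alone, so the direction of its difference was fixed by the filter. Col8a2 averaged 7.07 ± 0.19 in adult cannabis mice, 7.25 ± 0.15 in adult vehicle mice, 7.91 ± 0.49 in P28 cannabis mice and 7.35 ± 0.34 in P28 vehicle mice (SD). It fell by 0.47 ± 0.13, an intensity ratio of 0.72 (limma adjusted p = 0.0443). Its second probe gave -0.12 ± 0.03 (limma adjusted p = 0.0513). That second probe exceeded the background level on 6 arrays, all of them P28, so the filter fixed the direction of its difference. Over the 14 arrays with a choroid plexus level below 8, the differences were -0.07 ± 0.06 for Col8a1 and -0.06 ± 0.11 for Col8a2. The 4 arrays left out are all P28 and hold the highest values of both genes, so smaller differences follow from leaving them out, and 1 P28 cannabis array remains. In replicates 1 to 3 alone the differences were -0.32 for Col8a1 and -0.43 for Col8a2, with neither passing. In replicates 4 and 5 alone, with 1 P28 array of each treatment, they were -0.59 and -0.53. Of the choroid plexus markers, 6 of 11 passed as lower in adults (54.5%, against 3.1% of all probes). Ecrg4, by 1.13 ± 0.28, Ttr, by 2.02 ± 0.57, and Sostdc1 were above background on 9, 10 and 10 of the 10 adult arrays, while Aqp1, Folr1 and Cldn2 were above on 1, 1 and 0 and entered the test mainly or solely through P28 arrays.

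Of the genes that did not pass on average, the nearest were Col4a5 at -0.24 ± 0.07 (limma adjusted p = 0.0606), Col9a2 at -0.12 ± 0.04 (0.0765), Col26a1 at -0.15 ± 0.05 (0.0939) and Col1a1 at -0.15 ± 0.05 (0.0986). Col1a1 entered the test through 2 P28 cannabis, 2 P28 vehicle and 1 adult cannabis arrays, so the filter favoured its direction. A second Col4a5 probe did pass, at -0.20 ± 0.05 (limma adjusted p = 0.0316). The vessel chains differed from each other in size, with Col4a1 at -0.19 ± 0.07 (limma adjusted p = 0.116) and Col4a2 at -0.01 ± 0.06 (limma adjusted p = 0.968), a contrast between chains that was not tested. The 95% intervals were -0.33 to -0.05 and -0.13 to 0.12.

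Meningeal fibroblast markers also moved with age. All 10 that were above background had lower values in adults, with a median of -0.29, and 4 passed (40%, against 3.1% of all probes). Mgp, a calcification inhibitor, fell by 0.91 ± 0.12 and the growth factor Igf2 by 1.10 ± 0.17. The binding protein Igfbp2 fell by 0.40 ± 0.08 and the sulphate transporter Slc13a4 by 1.15 ± 0.25 (largest limma adjusted p of the 4 = 0.0138). Foxc1, Gjb2, Gjb6, Slc22a6, Slc47a1 and Slc6a13 did not pass. The list's mean level was 7.87 to 8.18 in adult cannabis, 7.80 to 8.004 in adult vehicle, 8.07 to 8.50 in P28 cannabis and 8.01 to 8.77 in P28 vehicle mice. It averaged 7.95 and 7.89 in adult cannabis and adult vehicle mice, and 8.33 and 8.45 in P28 cannabis and P28 vehicle mice. The level thus followed age itself, and a fit with it as a covariate cannot tell it and age apart. In that fit, none of the 19 collagens and none of the 18249 probes passed, and Col18a1, Col8a1 and Col8a2 differed by -0.06, -0.08 and -0.21. No collagen followed the meningeal level within groups, where limma called 0.0274% of probes. Endothelial, pericyte and smooth muscle markers gave 1, 0 and 0 genes that rose and 0 that fell, of 14, 6 and 6. The 1 was Flt1, a receptor for vascular growth factors, at 0.33 ± 0.08 (limma adjusted p = 0.0218).

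Among the genes that make, bind and cut collagen, none passed in either treatment comparison. At P28 the smallest p-value in each of the 3 groups (assembly, receptors, enzymes and inhibitors) was that of Pcolce2, an enhancer of procollagen cleavage (0.33 ± 0.14), the collagen receptor Ddr1 (-0.15 ± 0.13) and Timp4, an inhibitor of matrix proteases (0.28 ± 0.09), all with a limma adjusted p of 1. In adults by treatment the same groups had their smallest at Bmp1, which cleaves procollagen (0.21 ± 0.12), the collagen uptake receptor Mrc2 (-0.12 ± 0.05) and Timp2 (-0.42 ± 0.25), again with a limma adjusted p of 1.

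With age averaged over treatments, 1 of 19 assembly and processing genes fell (5.26%, against 3.1% of all probes), the collagen chaperone Sparc, by 0.62 ± 0.10 (limma adjusted p = 0.00261). Of 5 receptors, Ddr1 fell by 0.76 ± 0.09 (limma adjusted p = 0.000228) and the integrin chain Itga11 rose by 0.50 ± 0.10 (limma adjusted p = 0.00775). Of 8 collagen-cutting enzymes and their inhibitors, Mmp2, a gelatinase, fell by 0.19 ± 0.05 (limma adjusted p = 0.0262). The partners of collagen in the basement membrane had 2 of 10 lower, the linker Nid1 by 0.21 ± 0.06 and the laminin chain Lama1 by 0.16 ± 0.04, with 9 of 10 differences negative and a median of -0.14. Proteoglycans and glycoproteins of fibrous matrix had 1 of 10 lower, elastin, Eln, by 0.34 ± 0.09 (limma adjusted p = 0.0346), with 9 of 10 negative and a median of -0.13. In vehicle mice alone, Sparc at -0.64 ± 0.14 and Ddr1 at -0.80 ± 0.12 fell and Itga11 at 0.61 ± 0.14 rose, and in cannabis mice alone Ddr1 fell by 0.73 ± 0.12.

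Some collagens are built from chains of different genes, and 4 such pairs were compared across the 18 arrays as deviations from group means. Col8a1 and Col8a2 had a Pearson r of 0.692 (permutation p = 0.0499, adjusted over the 4 pairs 0.199) and a Spearman rho of 0.459 (permutation p = 0.158, adjusted 0.631). Without the 2 arrays farthest from the median, P28 cannabis replicates 1 and 4, r was 0.416, and within replicates 1 to 3 (n = 12) it was 0.731. Col4a1 and Col4a2 had an r of -0.0566 and a rho of -0.0175 (permutation p = 0.812 and 0.95, and the same after adjustment). Col1a1 and Col1a2 had an r of -0.193 and Col6a1 and Col6a2 an r of 0.0542, with rho of -0.172 and 0.0279 (adjusted permutation p at least 0.656), and Col1a1, Col1a2 and Col6a2 lay near background. Replicates 4 and 5 held too few arrays per group for a value of their own.

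Col4a1 was the 1 collagen that followed the pericyte level within groups, with a slope of 1.97 ± 0.41 (limma adjusted p = 0.0298), in a fit in which limma called 3.7% of probes. The pericyte list spanned only 0.211 over the 18 arrays. With replicates 4 and 5 as a block, the slope was 1.79 ± 0.46 (limma adjusted p = 0.129) and 0.0% of probes were called. No collagen followed the endothelial or smooth muscle level, where limma called 0.0% and 0.0164% of probes. Between replicate sets, 4 and 5 minus 1 to 3, 1 of 19 collagens differed, Col23a1, by -0.32 ± 0.06 (limma adjusted p = 0.0011), against 23.6% of probes.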

How the data were processed

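Hippocampal RNA of 18 samples in 4 groups was labelled with biotin and measured on Illumina mouse bead arrays. The values used are the log2 intensities of the table the authors deposited, in which all columns hold the same sorted values within 0.0046, which shows that the authors deposited them normalized between arrays. The submitters' processing notes list Partek, whose role the sources used here do not state. In all, 72 per-sample columns of other deposited tables are named by slide position, match no sample label and were not used.

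Symbols came from the platform annotation (34885 probes with 1 symbol, 18 with several, 10378 unnamed), and 41 of 41 collagen gene IDs matched the RefSeq table of GRCm38.p6. The background level was the peak of the histogram of all values plus 3 SD (0.0702, estimated on the side below the peak). Every probe above it on at least 4 arrays entered 1 fit by limma 3.58.1 in R 4.3.3, in which each of the 4 groups of arrays had its own mean (14 residual and 3.93 prior degrees of freedom), with Benjamini-Hochberg adjustment over the 18249 probes at 0.05, two-sided. Intervals are 95% and unadjusted. The fitting was tested on simulated data. Permutation tests in numpy 2.4.6 used 100000 permutations within groups.

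Named genes are those past the threshold in a comparison, otherwise the 3 with the smallest p in each direction, and up to 3 of each other list. The genes and lists were chosen with earlier results of these data known, and Col4a1, Col5a1, Col1a1 and Col9a2 are given beyond that rule. The fits on marker levels, the chain pairs, the meningeal covariate and the fits over 14 arrays were chosen after seeing the data. Same-numbered samples deviated together at P28, with correlations of 0.196, 0.339, 0.383 and 0.534, so a fit with replicate number as a block was run as an alternative, although no label says that numbers mark pairs. Printed values are from the fit without it unless the block is named. Between adult groups correlations ran from -0.151 to 0.498, and between ages from -0.084 to 0.641. Some same-numbered samples thus deviated together outside P28 as well, and pairing cannot be told apart from an effect of the replicate sets. The number of arrays limits the precision.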

Additional observations from a re-analysis of the deposited data

Results flagged for a closer look

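Single arrays stood apart from the rest of their group for 3 collagens above background, by a gap to the nearest array that is large for the group's range. Chance gives about 1 such array in 20 groups, and 76 groups were looked at (19 genes in 4 groups). Col18a1 was 7.85 in P28 cannabis replicate 4, where the other arrays of that group were 7.61 to 7.64. Col16a1 was 8.40 in P28 vehicle replicate 1, where the others were 8.06 to 8.11. Col4a2 was 8.54 in adult vehicle replicate 3, where the others were 8.74 to 8.82. None of these genes passed a test between treatments with or without those arrays. Col18a1 passed the age comparison averaged over treatments, but not without P28 cannabis replicate 4.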

How the results depend on the processing

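Averaged over treatments, 3 collagens were lower in adults. The count was 7 at an adjusted p of 0.10, 5 after normexp background correction, 1 among the 7 genes above background on all 18 arrays, and 0 with no filter on dim probes (41 genes tested). It was 0 in replicates 1 to 3 alone, where 183 of 18249 probes were called, and 0 in replicates 4 and 5 alone, where 12 were. It was 0 with the choroid plexus covariate, 0 with the meningeal covariate and 0 over the 14 arrays with a choroid plexus level below 8, and in each of these 3 fits 0 of 18249 probes were called, against 906. Leaving out each array in turn gave 0 to 5: 5 without adult cannabis replicate 2, 0 without P28 cannabis replicate 2 or 4, P28 vehicle replicate 1, 2 or 3, adult vehicle replicate 3 or 5, or adult cannabis replicate 5, and 1 without adult cannabis replicate 1 or 3, adult vehicle replicate 1, 2 or 4, or P28 cannabis replicate 3. In cannabis mice the count was 0, and 1 at an adjusted p of 0.10, 1 with the 3 sets of 6 in order of deposit as a block, 2 in replicates 4 and 5 alone, where the P28 cannabis group is replicate 4 alone, assumed to vary like the other groups, and 0 to 2 leaving out each array (2 without P28 cannabis replicate 1). In vehicle mice it was 0, and 2 with array weights and 1 with only the groups compared. Fewer arrays or genes enter some of these fits; otherwise the cause was not tested.

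With replicate number as a block, the averaged count was 1 (Col8a2), and no call at P28 or in any other comparison changed.

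Col8a1 and Col8a2 followed the choroid plexus level, a count of 2, or 0 to 2 leaving out each array (0 without P28 cannabis replicate 1). Col4a1 followed the pericyte level, a count of 1, which was 0 with replicates 4 and 5 as a block and 0 to 1 leaving out each array (0 without adult cannabis replicate 5, adult vehicle replicate 2 or 5, P28 cannabis replicate 3 or P28 vehicle replicate 4).

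Of the differences of named genes under other settings, 936 kept direction and side of the threshold, 65 lost and 8 gained the threshold, and 19 changed sign. With the choroid plexus covariate, Col8a1 and Col8a2 at P28 were -0.0318 and -0.0243, the Col8a1 interaction 0.0538 and Col16a1 with age in cannabis mice -0.00455. At P28 that covariate and treatment cannot fully be told apart. Over the 14 arrays, which hold 1 P28 cannabis array, Col8a1 at P28 was -0.0623, its interaction 0.0469 and Col16a1 -0.014. Col4a2 with age in cannabis mice was -0.0145 with the sets of 6 as a block, -0.0379 in replicates 4 and 5 alone and -0.0471 with the meningeal covariate, and -0.0228 to 0.0973 leaving out each array. Col16a1 in that comparison was -0.0800 in replicates 4 and 5 alone and -0.0647 to 0.0665 leaving out each array. Col6a1 with age in vehicle mice was -0.13 in replicates 1 to 3 alone. The comparison of only the groups involved gives no averaged or interaction value. Probes close to background bound what these arrays can show for Col1a1, Col1a2, Col6a2, Col8a1 and the 22 genes below it.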
